A study of Mus musculus with 18 samples.

Results

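The 10 genes described here belong to the ATF4 stress response and to the serine and one-carbon pathway of the mouse. They were chosen as members of these pathways with earlier results of these data known, so counts of called genes are descriptions. Taken by name from the deposited table of gene counts, all 10 had a row among 54446 gene rows. They are the transcription factor gene Atf4, its stress-response partners and targets Ddit3, Trib3 and Chac1, the asparagine synthetase gene Asns, the serine synthesis genes Phgdh and Psat1, the mitochondrial one-carbon genes Shmt2 and Mthfd2, and the mitochondrial carboxykinase gene Pck2.

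Nuclear RNA was measured in 18 libraries from C57BL/6 mouse embryonic stem cells, in 9 groups of 2. The Ythdc1 experiment held 12 libraries, labelled Ythdc1_cKO or Ythdc1_Control, with actinomycin D, which blocks transcription, added at 5 µg/ml 0, 3 or 6 h before collection. The Mettl3 experiment held 6 libraries, labelled Mettl3_KO1, Mettl3_KO2 and Mettl3_Control, all with a time of 0 h. All groups grew in serum with LIF, CHIR99021 and PD0325901, and ERCC spike-in RNA was added to the nuclear RNA before ribosomal RNA was removed. YTHDC1 is a nuclear reader of the RNA mark N6-methyladenosine and METTL3 is the enzyme that writes it. The labels name neither a Cre driver nor an inducer for the cKO, do not say whether KO1 and KO2 are single clones, and do not say that replicates came from separate cultures. The p-values therefore rest on library-to-library spread, which may be purely technical.

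When amino acids run short or unfolded protein builds up, kinases phosphorylate eIF2 alpha, general translation falls and translation of ATF4 rises. ATF4 pairs with C/EBP factors at composite C/EBP-ATF response elements and raises genes for amino acid synthesis, transport and, under lasting stress, cell death. Serine made from glycolytic carbon feeds mitochondrial one-carbon units, which dividing stem cells use for nucleotides and methyl groups. Because ATF4 is controlled in large part at translation, its nuclear RNA is not a measure of its protein.

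In GENCODE M21 (GRCm38, the mm10 build), Atf4 lies at chr15:80255184-80257541 (+), Ddit3 at chr10:127290774-127296288 (+), Trib3 at chr2:152337422-152344032 (-), Chac1 at chr2:119351229-119354381 (+) and Asns at chr6:7675169-7693254 (-). Phgdh lies at chr3:98313170-98339990 (-), Psat1 at chr19:15904678-15947337 (-), Shmt2 at chr10:127517123-127522444 (-), Mthfd2 at chr6:83305691-83325908 (-) and Pck2 at chr14:55540266-55551242 (+). A second gene ID named Ddit3 shares 105 exon bases with the first and held 0 counts in all libraries. Exons of Ddit3, Shmt2 and Pck2 share 81, 32 and 53 bases with genes on the opposite strand, and Phgdh has a processed pseudogene, Phgdh-ps1. Whether strand was used in counting is not given in the sources used here. Reads in those bases may come from either gene.

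The core letters of the C/EBP-ATF response element, TGATGNAA on either strand, were searched in RefSeq promoters (GRCm38.p6, 250 bases before to 50 bases after each start). They occurred in 1304 of 32851 promoters, or 3.97%, and in promoters of 4 of the 10 genes. The stretches that hold them are printed on the strand of the gene, with the matching letters in capitals, because ATF4 acts through elements of this kind. Contact of ATF4 with these stretches was not tested. The windows are Chac1 chr2:119350993-119351112 (+), Trib3 chr2:152344028-152344057 (-), Asns chr6:7693214-7693243 (-) and Pck2 chr14:55540107-55540226 (+).
Chac1: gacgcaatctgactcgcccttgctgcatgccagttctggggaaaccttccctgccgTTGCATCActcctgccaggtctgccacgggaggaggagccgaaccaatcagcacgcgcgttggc
Trib3: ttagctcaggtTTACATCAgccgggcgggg
Asns: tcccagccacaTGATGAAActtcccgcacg
Pck2: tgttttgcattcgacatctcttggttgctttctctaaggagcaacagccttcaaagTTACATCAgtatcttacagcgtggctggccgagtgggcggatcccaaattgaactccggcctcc
The Asns match starts 23 bases before the RefSeq start and reads along the gene, and it falls inside a GENCODE exon of Asns. The matches in Chac1, Trib3 and Pck2 are on the opposite strand and start 193 bases before, 15 bases after and 103 bases before the RefSeq start. The Trib3 match lies before the GENCODE start of Trib3. The ER stress response element (ERSE) occurred in 39 promoters (0.119%) and in none of the 10 genes. A match is a description of letters, and no match says only that these letters are not in this window.

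Reads counted to genes numbered 4950973 to 30989044 per library. Levels are given in CPM, that is, reads after TMM scaling (edgeR) within each experiment, so they are relative to the typical gene of that experiment. Where libraries of 2 groups are said to stand apart, this is a description, as the share of all genes that do so was not counted. All 10 genes passed the filter on low counts in each main fit. With the alternative filter of 50 counts in 2 libraries, Chac1 did not pass in the Ythdc1 experiment. Markers of embryonic stem cells were present in all libraries, at 3000 to 4729 CPM summed over 10 genes. Fibroblast feeder markers (8 genes) summed to 10.1 to 43.4 CPM in the Ythdc1 experiment and to 193 to 517 CPM in the Mettl3 experiment. Of these, Lum and Dcn stood at or near 0 in every library. The Ythdc1 gene itself had 143 and 120.4 CPM in libraries labelled cKO at 0 h, against 145 and 132 CPM in controls (log2 fold change -0.07 ± 0.079 SE, edgeR adjusted p = 0.557). At 3 h it had 14.5 and 15.3 CPM against 51.9 and 50.3 CPM, and at 6 h 19.2 and 18.7 CPM against 51.3 and 47.2 CPM. Its change from 0 to 3 h was -3.14 ± 0.093 in cKO and -1.44 ± 0.082 in controls. The groups thus overlapped at 0 h and stood apart at 3 and 6 h. Mettl3 had 32.6 and 31.3 CPM in libraries labelled KO1 and 22.7 and 22.1 CPM in those labelled KO2, against 36.6 and 31.9 CPM in controls. A count over a whole gene does not check the loss of a few exons.

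Scaled for exon length, Asns had the highest level of the 10 genes and Atf4 the next highest in all 5 groups without drug. Asns averaged 101 ± 1.71 CPM per kb in libraries labelled cKO and 176 ± 3.09 CPM per kb in their controls (SD, n = 2 each). It averaged 287 ± 0.011 CPM per kb in KO1, 234 ± 7.26 in KO2 and 209 ± 0.712 in the Mettl3 controls (SD, n = 2 each). Pck2 and Chac1 had the lowest levels per kb, at 1.18 ± 0.046 and 2.36 ± 0.809 CPM per kb in libraries labelled cKO, against 1.45 ± 0.026 and 1.23 ± 0.433 CPM per kb in their controls. The exon length is that of all GENCODE exons of a gene, so it may be longer than the transcripts these cells use.

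Before the drug, 4 of the 6 enzyme genes and 1 stress effector differed in libraries labelled cKO. Asns, Phgdh, Psat1 and Shmt2 fell, Trib3 rose narrowly, and Atf4, Ddit3, Chac1, Mthfd2 and Pck2 did not pass the test. Over all 17900 genes tested, 29.4% were called in this comparison at an adjusted p below 0.05, 13.5% higher and 15.8% lower, against 1 higher and 4 lower of the 10 genes. The median log2 fold change of the 10 was -0.24, against 0.01 over all genes tested. In bulk RNA, fewer cells of a type and less RNA per cell cannot be told apart.

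Asns, which makes asparagine from aspartate and glutamine, had 273 and 279 CPM in libraries labelled cKO, against 474 and 486 CPM in controls. The groups were far apart, at 0.575 times the control level (log2 fold change -0.80 ± 0.050 SE, edgeR quasi-likelihood adjusted p = 2.64e-15). Phgdh, which catalyses the first step of serine synthesis, had 41.2 and 44.9 CPM in libraries labelled cKO, against 67.1 and 70.1 CPM in controls (-0.67 ± 0.082, edgeR adjusted p = 3.44e-08). Psat1, the next enzyme of the same route, had 102 and 98.5 CPM in libraries labelled cKO, against 147 and 138 CPM in controls (-0.50 ± 0.063, edgeR adjusted p = 7.72e-08). Neither gene's libraries overlapped between the groups. Shmt2, which splits serine into glycine and a one-carbon unit in mitochondria, had 82.8 and 98.6 CPM in libraries labelled cKO, against 122 and 131 CPM in controls (-0.48 ± 0.073, edgeR adjusted p = 2.15e-06). Mthfd2, which oxidises that one-carbon unit, overlapped between groups, with 48.5 and 43.2 CPM in libraries labelled cKO and 44.8 and 52.8 CPM in controls (-0.10 ± 0.12, interval -0.35 to 0.15). Pck2, which turns oxaloacetate into phosphoenolpyruvate in mitochondria, had 9.44 and 8.94 CPM in libraries labelled cKO, against 11.2 and 11.5 CPM in controls (-0.30 ± 0.17, edgeR adjusted p = 0.188).

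The stress effectors had low counts, which widens their intervals. Trib3, a pseudokinase that binds ATF4 and AKT, had 9.77 and 10.7 CPM in libraries labelled cKO, against 6.94 and 7.25 CPM in controls (0.53 ± 0.20, edgeR adjusted p = 0.0453). That call was lost on leaving out any 1 of the 4 libraries: the log2 fold change was 0.59 and 0.45 without cKO replicates 1 and 2, and 0.49 and 0.55 without control replicates 1 and 2 (edgeR adjusted p 0.0889 to 0.22). It was also lost with spike-in scaling, at 0.16 (edgeR adjusted p = 0.568), and with DESeq2's Wald test, at 0.50 (adjusted p = 0.197). Ddit3, the pro-apoptotic factor CHOP, had 61 and 72 reads (6.62 and 8.04 CPM) in libraries labelled cKO, against 50 and 56 reads (5.42 and 4.28 CPM) in controls (0.61 ± 0.29, edgeR adjusted p = 0.108). Chac1, which degrades glutathione, had 27 and 43 reads (2.93 and 4.80 CPM) in libraries labelled cKO, against 14 and 33 reads (1.52 and 2.52 CPM) in controls (0.89 ± 0.38, edgeR adjusted p = 0.0695, 0.49 to 1.33 over the libraries left out in turn). The Chac1 value was 1.21 with an adjusted p of 0.0409 without cKO replicate 1, 0.49 with an adjusted p of 0.531 without cKO replicate 2, and 0.60 with an adjusted p of 0.373 without control replicate 1. Atf4 had 134 and 146 CPM in libraries labelled cKO, against 153 and 162 CPM in controls (-0.17 ± 0.070, edgeR adjusted p = 0.0627), and without cKO replicate 2 it was at -0.24 with an adjusted p of 0.0336.

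Scaling to spike-in reads shifted the median of all genes in this comparison to -0.35, and 46.7% of all genes were then called, 4.41% higher and 42.3% lower, against 0 higher and 7 lower of the 10. Asns, Phgdh, Psat1 and Shmt2 were lower under each scaling, at -1.17, -1.04, -0.87 and -0.85 relative to spike-ins. Embryonic stem cell markers summed to 3000 and 3005 CPM in libraries labelled cKO, against 3566 and 3638 CPM in controls, with 7 of 10 lower and 1 higher. Feeder markers summed to 13.2 and 14.1 CPM against 10.1 and 12.1 CPM, with 2 of 6 tested higher and 1 lower. The part of either marker list in the gene changes was not tested.

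**Figure D1:**
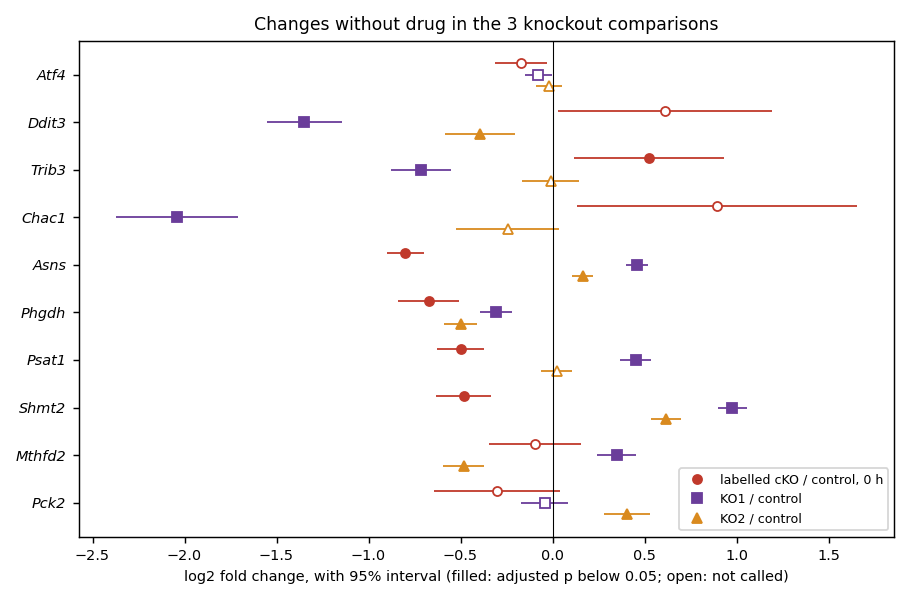
Log2 fold change over control, with its 95% interval, of the 10 genes in libraries labelled cKO at 0 h (circles), KO1 (squares) and KO2 (triangles), each over the control of its own experiment. Filled symbols had an adjusted p below 0.05. Asns stands at -0.80 in cKO, 0.46 in KO1 and 0.16 in KO2, and Chac1 at 0.89, -2.04 and -0.24; scaled to spike-ins, KO2 moves to 0.73 for Asns and 0.32 for Chac1.

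In the Mettl3 experiment, libraries labelled KO1 had less RNA of the stress effectors Ddit3, Trib3 and Chac1 and of Phgdh, and more of Asns, Psat1, Shmt2 and Mthfd2. These were 4 genes higher and 4 lower of the 10, where 46.1% of the 21802 genes tested were called, 23.9% higher and 22.2% lower. The median log2 fold change of the 10 was -0.06, against -0.01 over all genes tested. Asns, Psat1, Shmt2 and Mthfd2 thus moved in the opposite direction to the effectors, Phgdh moved with the effectors, and Pck2 did not pass the test.

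Chac1 showed the widest gap, with 2.44 and 2.82 CPM in KO1, against 10.5 and 11.02 CPM in controls (log2 fold change -2.04 ± 0.17, edgeR adjusted p = 2.63e-18). Ddit3 had 9.42 and 10.8 CPM in KO1, against 24.9 and 26.3 CPM in controls (-1.35 ± 0.10, edgeR adjusted p = 6.47e-20). Trib3 had 19.5 and 24.3 CPM in KO1, against 36.9 and 34.4 CPM in controls (-0.71 ± 0.082, edgeR adjusted p = 5.77e-12). All 3 were below both controls in both KO1 libraries. Shmt2 had 246 and 237 CPM in KO1, against 124 and 121 CPM in controls (0.98 ± 0.040, edgeR adjusted p = 1.39e-35). Asns had 785 and 785 CPM in KO1, against 569.9 and 573 CPM in controls (0.46 ± 0.030, edgeR adjusted p = 2.04e-23). The remaining enzymes changed less: Psat1 had 188 and 179 CPM in KO1, against 134 and 135 CPM in controls (0.45 ± 0.041, edgeR adjusted p = 6.66e-16). Mthfd2 had 91.7 and 87.5 CPM in KO1, against 72.4 and 68.6 CPM in controls (0.35 ± 0.054, edgeR adjusted p = 5.76e-08). Phgdh had 121 and 124 CPM in KO1, against 159 and 144 CPM in controls (-0.31 ± 0.044, edgeR adjusted p = 9.68e-09).

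Atf4 itself had 223 and 229.8 CPM in KO1, against 235 and 242 CPM in controls, a small difference that did not pass the test (-0.08 ± 0.036, edgeR adjusted p = 0.0785; -0.09 with an adjusted p of 0.0485 without control replicate 1). Pck2 overlapped, with 43.8 and 42.4 CPM in KO1 and 46.5 and 42.3 CPM in controls. With spike-in scaling the median of all genes moved to 0.17, the 8 calls kept their direction, and Atf4 turned to 0.11 (edgeR adjusted p = 0.0201), giving 5 genes higher and 4 lower where 48.5% of all genes were called, 34.8% higher and 13.7% lower.

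Libraries labelled KO2 shared only some of these changes. Shmt2, Asns and Pck2 were higher, Ddit3, Phgdh and Mthfd2 were lower, and Atf4, Trib3, Chac1 and Psat1 did not pass the test. That made 3 higher and 3 lower of the 10, where 50.8% of genes were called, 24.4% higher and 26.4% lower, with a median of -0.01 for the 10 and -0.03 for all genes. The KO1 and KO2 comparisons share their control libraries.

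Shmt2 had 192 and 184 CPM in KO2, against 124 and 121 CPM in controls (0.62 ± 0.040, edgeR adjusted p = 1.85e-23). Pck2 had 57.4 and 60.1 CPM in KO2, against 46.5 and 42.3 CPM in controls (0.40 ± 0.063, edgeR adjusted p = 6.51e-08). Asns had 626 and 654 CPM in KO2, against 569.9 and 573 CPM in controls (0.16 ± 0.030, edgeR adjusted p = 2.6e-06; 0.10 with library size alone). Each was above both controls in both KO2 libraries. Phgdh had 107 and 107 CPM in KO2, against 159 and 144 CPM in controls (-0.50 ± 0.045, edgeR adjusted p = 1.99e-16), and Mthfd2 had 48.1 and 52.7 CPM, against 72.4 and 68.6 CPM in controls (-0.48 ± 0.057, edgeR adjusted p = 1.1e-11). Ddit3 had 18.7 and 20.3 CPM in KO2, against 24.9 and 26.3 CPM in controls (-0.39 ± 0.095, edgeR adjusted p = 0.000319). Trib3 overlapped, with 34.9 and 35.9 CPM in KO2 and 36.9 and 34.4 CPM in controls (-0.01 ± 0.079, interval -0.17 to 0.15), while Chac1 had 8.79 and 9.41 CPM, against 10.5 and 11.02 CPM in controls (-0.24 ± 0.14, edgeR adjusted p = 0.146).

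The KO2 directions depended on the scaling. Relative to spike-ins the median of all genes was 0.53, 7 of the 10 genes were called higher and 0 lower where 63.4% of all genes were called (56.7% higher and 6.69% lower), and Ddit3, Phgdh and Mthfd2 stood at 0.17, 0.06 and 0.08 with no call. Feeder markers summed to 513 and 517 CPM in KO2, to 193 and 198 CPM in KO1 and to 201 and 218 CPM in controls, and 5 of the 6 feeder markers tested were higher in KO2. Stem cell markers summed to 3133 and 3175 CPM in KO2, to 4718 and 4721 CPM in KO1 and to 3370 and 3427 CPM in controls. Of the 10, 1 was higher and 7 lower in KO2, and 9 were higher and 0 lower in KO1. Mesoderm markers (4 genes, 3 tested) summed to 10.1 to 10.6 CPM in KO2, to 23.1 to 23.3 CPM in KO1 and to 8.35 to 9.24 CPM in controls, with 1 called higher in KO2 and 2 in KO1. Neuroectoderm markers (4 genes) summed to 112 to 122 CPM in KO2, to 101 to 108 CPM in KO1 and to 144 to 149.6 CPM in controls, with 3 of 4 lower in each line and 1 higher in KO1. Endoderm markers (6 genes, 5 tested) summed to 2.83 to 3.00 CPM in KO2, to 4.69 to 5.15 CPM in KO1 and to 8.97 to 9.62 CPM in controls, with 3 lower in KO2 and 1 in KO1. The part of these markers in the KO1 and KO2 values was not tested.

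**Figure D2:**
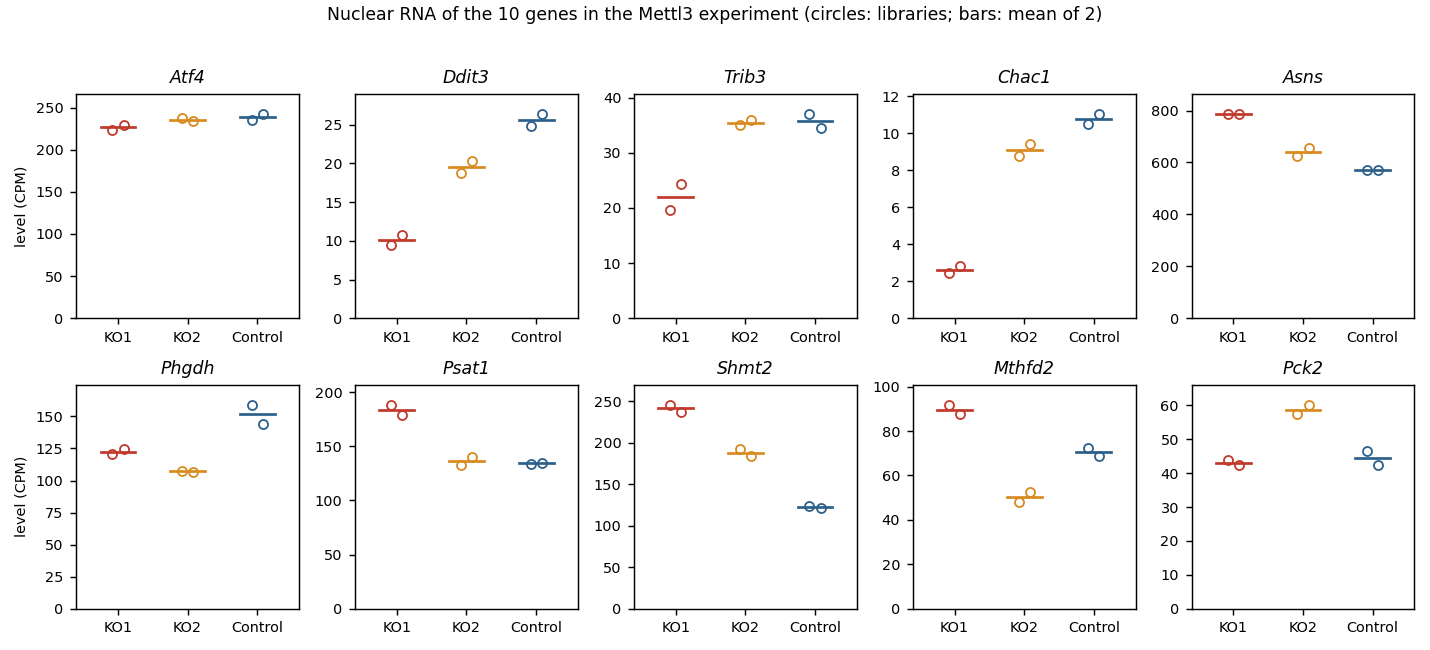
Level in CPM of each gene in the 2 libraries of KO1, KO2 and the control of the Mettl3 experiment (circles), with the mean of the 2 as a bar. KO1 lies far below the other groups for Ddit3, Trib3 and Chac1 and above them for Asns, Psat1, Shmt2 and Mthfd2. Relative to spike-ins, KO1 is not above KO2 for Asns and Shmt2, and Psat1 is at 0.05 with no call (edgeR adjusted p = 0.362).

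The 2 Mettl3 lines were set against each other directly. KO1 differed from KO2 in 9 of the 10 genes, 5 higher and 4 lower, where 46.1% of genes were called, 24.5% higher and 21.6% lower. Chac1 (-1.80 ± 0.17), Ddit3 (-0.96 ± 0.10), Trib3 (-0.70 ± 0.081) and Pck2 (-0.45 ± 0.062) were lower in KO1 than in KO2, with edgeR adjusted p-values of 1.86e-15, 8.91e-13, 8.68e-12 and 3.41e-09. Mthfd2 (0.83 ± 0.055), Psat1 (0.43 ± 0.041), Shmt2 (0.36 ± 0.039), Asns (0.30 ± 0.030) and Phgdh (0.19 ± 0.045) were higher in KO1. Atf4 did not pass the test (-0.06 ± 0.036, edgeR adjusted p = 0.195). Relative to spike-ins the median of all genes was -0.38 and the 10 genes gave 1 call higher and 7 lower, where 55.7% of all genes were called, 7.63% higher and 48.1% lower. Atf4 was then called lower (-0.44, edgeR adjusted p = 6.92e-18) and Psat1 lost its call (0.05, edgeR adjusted p = 0.362). The effectors and Pck2 stayed lower and Mthfd2 higher (0.45), whereas Asns (-0.08), Phgdh (-0.19) and Shmt2 (-0.02) turned negative.

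Next, the change in libraries labelled cKO at 0 h was set against the mean change of the Mettl3 lines, each relative to its own controls. The difference was positive for Chac1 (1.97 ± 0.36), Ddit3 (1.43 ± 0.25) and Trib3 (0.83 ± 0.20), and negative for Shmt2 (-1.33 ± 0.082), Asns (-1.16 ± 0.059), Psat1 (-0.79 ± 0.075), Pck2 (-0.53 ± 0.17) and Phgdh (-0.32 ± 0.093). These 3 positive and 5 negative calls compare with 35.7% of 21680 genes called, 15.6% positive and 20.2% negative. The edgeR adjusted p was 8.43e-24 for Shmt2, 2.79e-28 for Asns, 2.21e-06 for Ddit3, 4.9e-06 for Chac1 and 0.00043 for Trib3. Atf4 (-0.18 ± 0.077) and Mthfd2 (-0.08 ± 0.14) did not pass, although Atf4 did without cKO replicate 2 (-0.23, edgeR adjusted p = 0.0213). The Phgdh call was lost without Ythdc1 control replicate 2 (-0.29) or Mettl3 control replicate 2 (-0.25), and the Pck2 call without Ythdc1 control replicate 2 (-0.51) or cKO replicate 2 (-0.49). Relative to spike-ins the median of all genes was -0.67, 2 genes were positive and 7 negative where 50.7% of all genes were called (4.36% and 46.3%), and Trib3 lost its call at 0.14 while Asns, Psat1 and Shmt2 stood at -1.85, -1.48 and -2.02. Atf4 (-0.86, edgeR adjusted p = 4.13e-15) and Mthfd2 (-0.77, edgeR adjusted p = 1.44e-05) were called negative on that scale. The experiments differ in cell line, depth and library set as well as in genotype, which cannot be told apart here.

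In libraries labelled cKO, 5 enzyme genes rose over 6 h relative to the typical gene, and Pck2 fell together with Atf4, Ddit3, Trib3 and Chac1. That was 5 higher and 5 lower of the 10, where 60.9% of genes were called, 29.6% higher and 31.3% lower. CPM are relative values, so a gene can rise in CPM while its RNA declines. At 3 h Shmt2 was also lower, giving 4 higher and 6 lower, against 59.4% of genes, 29.6% higher and 29.8% lower. Atf4 had 134 and 146 CPM at 0 h, 86.7 and 84.1 CPM at 3 h and 50.8 and 56.8 CPM at 6 h (-1.36 ± 0.076, edgeR adjusted p = 7.04e-18). Trib3 had 9.77 and 10.7 CPM, 6.75 and 5.93 CPM, and 3.06 and 3.57 CPM at 0, 3 and 6 h (-1.58 ± 0.23, edgeR adjusted p = 2.29e-07). Both declined at each step without overlap.

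Pck2 had 9.44 and 8.94 CPM in libraries labelled cKO at 0 h, 6.68 and 6.09 CPM at 3 h and 5.50 and 6.04 CPM at 6 h (-0.64 ± 0.19, edgeR adjusted p = 0.00369). Shmt2 had 82.8 and 98.6 CPM at 0 h, 73.1 and 76.3 CPM at 3 h (-0.28 ± 0.073) and 166 and 178 CPM at 6 h (0.93 ± 0.073, edgeR adjusted p = 1.02e-13). Phgdh had 41.2 and 44.9 CPM, 109 and 119 CPM, and 115 and 128 CPM (1.51 ± 0.081, edgeR adjusted p = 1.7e-18), so its gain came in the first 3 h. Asns, Psat1 and Mthfd2 were at 0.75 ± 0.050, 0.96 ± 0.063 and 0.74 ± 0.12 at 6 h. Among the low-count genes, Ddit3 fell by 2.13 ± 0.35, whereas Chac1, at -1.05 ± 0.40, lost its call without cKO 0 h replicate 2 (-0.65) or cKO 6 h replicate 2 (-0.44). At 3 h the calls of Shmt2 without cKO 0 h replicate 2 (-0.15), of Trib3 without cKO 3 h replicate 2 (-0.59) and of Pck2 without cKO 0 h replicate 1 (-0.47) or cKO 3 h replicate 2 (-0.44) were lost.

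The spike-in share of the reads set the cKO 3 h libraries apart, at 0.0272% and 0.0277% of gene reads, against 0.0772% to 0.189% in the other groups of this experiment. Relative to spike-ins the median of all genes at 3 h in cKO was 1.86 and 8 of the 10 genes were called higher and 0 lower, where 86.4% of all genes were called, 83.8% higher and 2.69% lower. At 6 h the median was -0.96, with 1 gene higher and 6 lower where 71.7% of all genes were called, 3.28% higher and 68.4% lower. Phgdh was then at 0.53, Asns, Psat1, Shmt2 and Mthfd2 at -0.22, -0.01, -0.05 and -0.23, and Pck2 at -1.62. The 6 h results were computed again without the cKO 3 h libraries and without all 3 h libraries, chosen after seeing the data, and all 10 genes were called in cKO at 6 h in both cases.

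In control nuclei, over the same 6 h, Atf4 and Ddit3 fell relative to the typical gene, Trib3 and Chac1 did not pass the test, and all 6 enzyme genes rose. That was 6 higher and 2 lower of the 10, where 64.8% of genes were called, 33.1% higher and 31.7% lower. At 3 h the same 6 and 2 genes were called, against 56.5% of genes, 29.3% higher and 27.1% lower.

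Atf4 had 153 and 162 CPM in controls at 0 h, 64.5 and 65.7 CPM at 3 h and 54.9 and 59.2 CPM at 6 h (6 h over 0 h, -1.46 ± 0.074, edgeR adjusted p = 2.15e-19). Most of that fall was present by 3 h (-1.27 ± 0.072). Ddit3 had 5.42 and 4.28 CPM at 0 h, 1.84 and 1.84 CPM at 3 h and 0.791 and 2.25 CPM at 6 h (-1.59 ± 0.36, edgeR adjusted p = 0.000182; -2.58 without control 6 h replicate 2, and -1.08 to -2.58 over the libraries left out in turn). Trib3 stood at 6.94 and 7.25 CPM, 5.66 and 6.30 CPM, and 6.44 and 4.86 CPM at 0, 3 and 6 h (-0.35 ± 0.22, edgeR adjusted p = 0.161). Chac1, counted in 10 to 33 reads per library, was at -0.84 ± 0.45 (edgeR adjusted p = 0.0985; -1.14 without control 0 h replicate 1, where it passed, and -0.41 with an adjusted p of 0.587 without control 0 h replicate 2).

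Phgdh gained most among the enzymes in controls, with 67.1 and 70.1 CPM at 0 h, 139 and 127 CPM at 3 h and 243 and 266 CPM at 6 h (1.89 ± 0.074, edgeR adjusted p = 1.15e-22). Pck2 had 11.2 and 11.5 CPM, 14.6 and 16.6 CPM, and 26.5 and 25.3 CPM at 0, 3 and 6 h (1.19 ± 0.15, edgeR adjusted p = 4.36e-09), and its call at 3 h was lost without control 3 h replicate 2 (0.37, edgeR adjusted p = 0.108). Shmt2 had 122 and 131 CPM at 0 h, 189 and 201 CPM at 3 h and 250.3 and 258 CPM at 6 h (1.00 ± 0.070, edgeR adjusted p = 2.47e-15). In these 3 genes the level was higher at each later time, with no overlap between times. Psat1, Mthfd2 and Asns were instead level or lower between 3 and 6 h, at 0.76, 0.72 and 0.50 by 3 h and 0.69, 0.65 and 0.30 by 6 h.

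Other measures moved with the drug time as well. Feeder markers summed to 13.2 to 14.1 CPM at 0 h and 23.8 to 26.8 CPM at 6 h in libraries labelled cKO, and to 10.1 to 12.1 CPM at 0 h and 39.9 to 43.4 CPM at 6 h in controls. Of the 6 tested, 2 were higher and 0 lower at 6 h in cKO, and 4 higher and 0 lower in controls. Over all genes tested, 29.6% were higher and 31.3% lower in cKO, and 33.1% and 31.7% in controls. Stem cell markers summed to 3000 to 3005 CPM at 0 h and 3737 to 3813 CPM at 6 h in cKO. In controls they summed to 3566 to 3638 CPM and 4662 to 4729 CPM. Of these 10 genes, 3 were higher and 5 lower at 6 h in cKO, and 4 and 5 in controls. Neuroectoderm markers summed to 52.3 to 58.6 CPM at 0 h and 69.0 to 70.9 CPM at 6 h in cKO, and to 70.3 to 75.8 CPM at 0 h and 141 to 149.7 CPM at 6 h in controls, with 2 of 3 tested higher in each. Endoderm and mesoderm markers, with 2 genes tested in each list, had lower sums at 6 h. Endoderm sums were 5.97 to 6.93 CPM at 0 h and 2.65 to 3.28 CPM at 6 h in cKO. In controls they were 5.27 to 5.53 CPM and 3.50 to 4.14 CPM. Mesoderm sums were 6.59 to 8.14 CPM and 4.69 to 5.98 CPM in cKO, and 8.40 to 8.56 CPM and 4.18 to 5.22 CPM in controls. Reads assigned to no counted feature, which may still lie within genes, made up 53.5% and 52.3% of uniquely placed reads in cKO at 0 h. In controls at 0 h they made up 50.1% and 49.7%. In the drug-treated libraries that share was 18.02% to 23.3% in cKO and 21.004% to 24.5% in controls. The part of these shifts in the gene changes over time was not tested.

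Relative to spike-ins, the median of all genes in controls was -0.46 at 3 h and -0.88 at 6 h. The 10 genes then gave 2 higher and 4 lower at 3 h, where 58.3% of all genes were called, 7.19% higher and 51.1% lower. At 6 h they gave 1 higher and 7 lower, where 70.4% of all genes were called, 7.33% higher and 63% lower. Phgdh alone of the 10 was called higher at 6 h (0.97), Shmt2 (0.08) and Pck2 (0.27) were near the 0 h level, Psat1, Mthfd2 and Asns were at -0.23, -0.26 and -0.62, and Atf4 was at -2.38. Trib3 (-1.26, edgeR adjusted p = 3.42e-06) and Chac1 (-1.76, edgeR adjusted p = 0.000753) were called lower on this scale, as was Ddit3 (-2.51). Spike-in scaling shifts all genes of a comparison by about the same amount, so it leaves their order as it was.

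**Figure D3:**
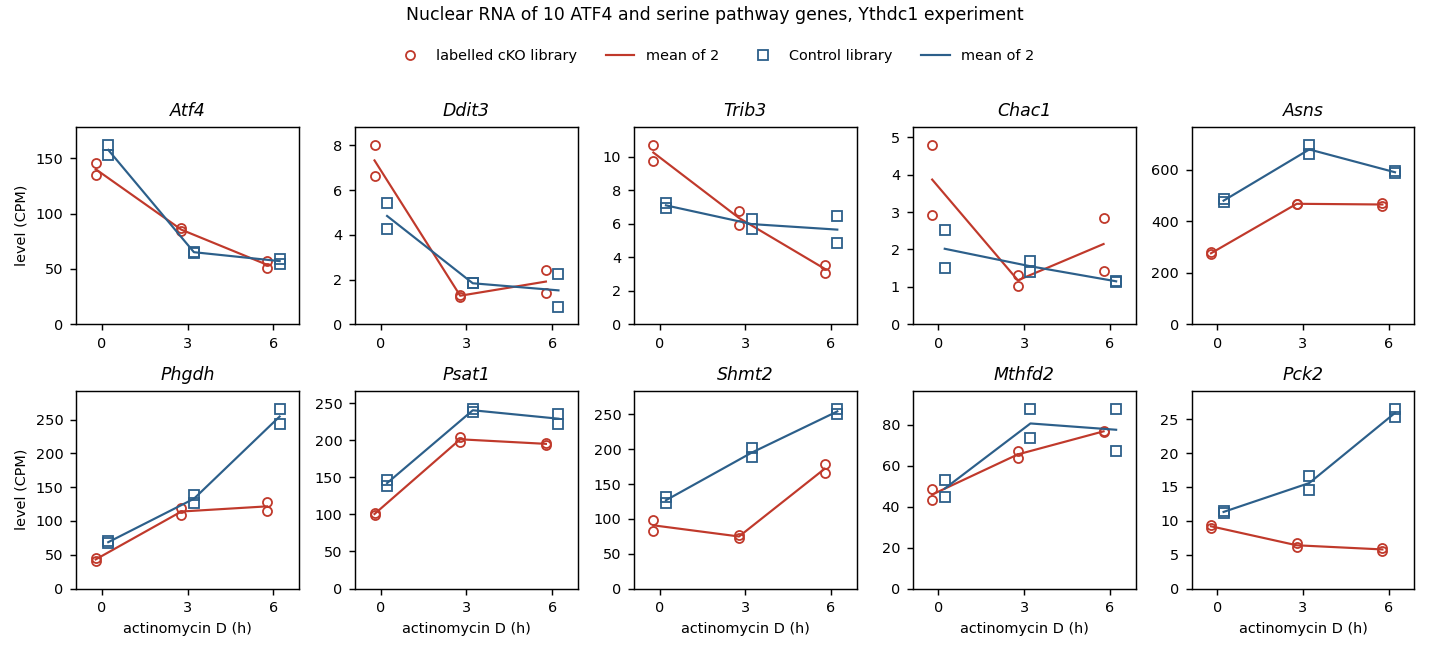
Level in CPM of each gene against hours in actinomycin D, in libraries labelled cKO (circles) and controls (squares) of the Ythdc1 experiment, with lines through the means of 2. Pck2 stands at 5.50 and 6.04 CPM in cKO at 6 h, against 25.3 and 26.5 CPM in controls, and Shmt2 falls to 73.1 and 76.3 CPM in cKO at 3 h; relative to spike-ins the cKO 3 h points lie higher than drawn.

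**Figure D4:**
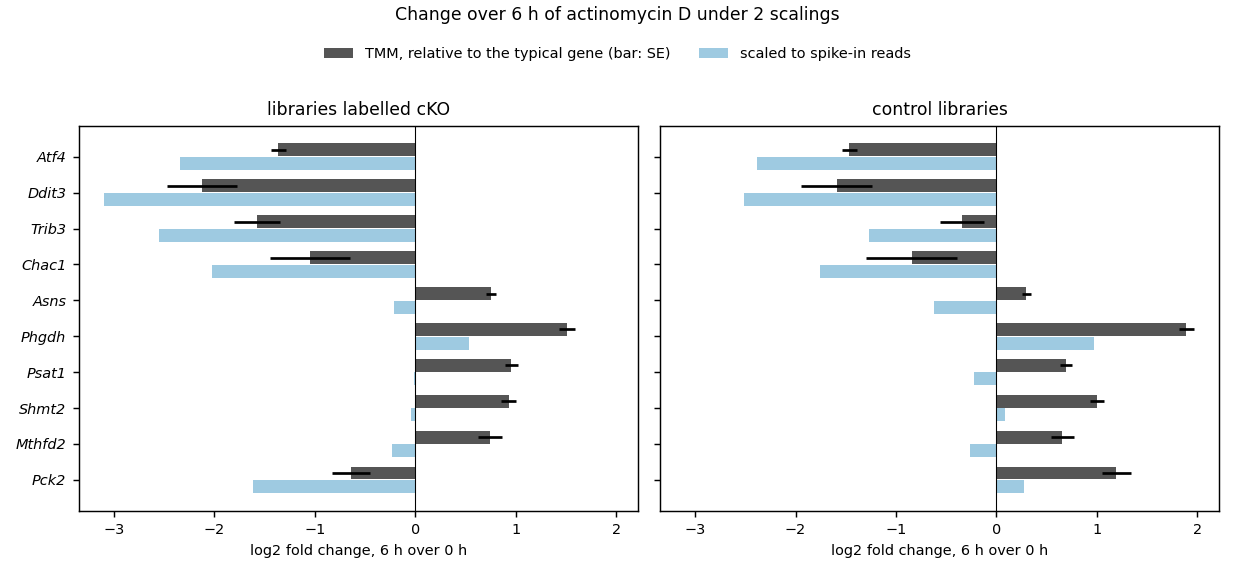
Log2 fold change from 0 to 6 h of actinomycin D in libraries labelled cKO (left) and controls (right), relative to the typical gene (dark bars, with SE) and to spike-in reads (light bars). Atf4, Ddit3, Trib3 and Chac1 are negative under both scalings on both sides, Phgdh is positive under both, and Pck2 is negative in cKO and positive in controls.

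The change over time was then compared between genotypes, as the change in cKO minus the change in controls. At 6 h, 5 of the 10 genes differed, 2 positive and 3 negative, where 19.1% of genes were called, 9.77% positive and 9.35% negative. The median difference of the 10 was -0.14, against -0.03 over all genes tested. Pck2 differed most (-1.83 ± 0.24, edgeR adjusted p = 3.9e-07), since it fell to 5.50 and 6.04 CPM in cKO by 6 h and rose to 26.5 and 25.3 CPM in controls. Trib3 differed by -1.23 ± 0.32 (edgeR adjusted p = 0.00482) and Asns by 0.45 ± 0.070 (edgeR adjusted p = 6.64e-06). Relative to spike-ins 17.9% of all genes were called, 7.52% positive and 10.3% negative, against 1 and 3 of the 10. The calls of Pck2, Trib3 and Asns held in every fit that left out 1 library and under each scaling, with Pck2 at -1.89, Trib3 at -1.29 and Asns at 0.40 relative to spike-ins.

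Phgdh (-0.38 ± 0.11, edgeR adjusted p = 0.0103) and Psat1 (0.27 ± 0.088, edgeR adjusted p = 0.0272) also passed at 6 h, but less firmly. Phgdh lost its call without control 0 h replicate 1 (-0.34), control 6 h replicate 2 (-0.31), cKO 0 h replicate 2 (-0.31) or cKO 6 h replicate 1 (-0.31), and with library size alone (-0.24). Psat1 lost its call without any 1 of those 4 libraries or cKO 6 h replicate 2 (0.23 to 0.27) and with spike-in scaling (0.22), and stood at 0.41 with library size alone. Atf4 (0.10 ± 0.11), Shmt2 (-0.08 ± 0.10) and Mthfd2 (0.09 ± 0.16) showed no detectable difference, with intervals of -0.11 to 0.32, -0.28 to 0.13 and -0.26 to 0.43. For Ddit3 and Chac1 the intervals, -1.59 to 0.52 and -1.44 to 1.03, were too wide to say more at these counts.

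At 3 h, 6 genes differed between genotypes, 4 positive and 2 negative, where 19.4% of genes were called, 11% positive and 8.39% negative. Atf4 (0.56 ± 0.10, edgeR adjusted p = 6.23e-05), Phgdh (0.45 ± 0.11, edgeR adjusted p = 0.0021) and Asns (0.26 ± 0.069, edgeR adjusted p = 0.00542) were positive, and Pck2 (-0.99 ± 0.23, edgeR adjusted p = 0.00142) and Shmt2 (-0.90 ± 0.10, edgeR adjusted p = 1.85e-08) negative. For Atf4 this meant 86.7 and 84.1 CPM left in cKO at 3 h, against 64.5 and 65.7 CPM in controls, and by 6 h the groups overlapped. Psat1 (0.24 ± 0.086, edgeR adjusted p = 0.0427) lost its call without any 1 of the 8 libraries except cKO 0 h replicate 1 (0.20 to 0.29, adjusted p up to 0.21). Relative to spike-ins the median of all genes was 2.36 and 9 genes were positive and 0 negative, against 89.4% and 0% of all genes, so Shmt2 (1.46) and Pck2 (1.37) were positive on that scale while still below the median.

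Other genes of the ATF4 pathway were counted from lists, with changes relative to the typical gene unless stated. Over all genes tested, 13.5% were called higher and 15.8% lower in cKO at 0 h, 23.9% and 22.2% in KO1, and 24.4% and 26.4% in KO2. Of 9 other transcription factors and regulators, 3 rose and 0 fell in libraries labelled cKO at 0 h: Atf3, a stress-induced repressor (1.63 ± 0.33), and Sesn2 and Ddit4, which restrain mTORC1 (0.65 ± 0.082 and 0.65 ± 0.11). In KO1, 0 rose and 7 fell, including the ATF4 partner gene Cebpg (-0.68 ± 0.070), Nupr1 (-0.97 ± 0.091) and Ddit4 (-1.19 ± 0.14). In KO2, 3 rose and 4 fell, and with spike-in scaling 6 rose and 0 fell, against 56.7% and 6.69% of all genes on that scale. The medians of the list were 0.40 in cKO, -0.68 in KO1 and -0.02 in KO2.

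Of 16 other serine, glycine and folate enzymes tested, 1 rose and 6 fell in cKO at 0 h, among them Shmt1, the cytosolic counterpart of Shmt2 (-0.81 ± 0.068). With spike-in scaling 0 rose and 14 fell, against 4.41% and 42.3% of all genes on that scale. In KO1 11 rose and 2 fell and in KO2 9 rose and 3 fell. Gldc, of the glycine cleavage system, stood at 1.34 ± 0.041 in KO1 and 1.94 ± 0.041 in KO2, and Mthfd1l, which makes formate in mitochondria, at 0.68 ± 0.043 in KO1 and 0.79 ± 0.043 in KO2. Of 20 cytosolic aminoacyl-tRNA synthetases, 3 rose and 8 fell in cKO at 0 h, 15 rose and 3 fell in KO1 and 9 rose and 4 fell in KO2. With library size alone the KO2 counts were 5 and 5, and the share of all genes on that scale is not reported here. The alanyl-tRNA synthetase gene Aars went against its list, at -0.54 ± 0.030 in KO1 and -0.73 ± 0.030 in KO2.

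Of 10 amino acid transporters, 2 rose and 4 fell in cKO at 0 h. Slc38a2, a neutral amino acid carrier, went against the larger number, at 0.88 ± 0.061. In KO1 4 rose and 3 fell: Slc7a5 and Slc3a2, the partner subunits of one leucine exchanger, were at -0.79 ± 0.037 and -0.84 ± 0.033, and the glutamine carrier gene Slc1a5 at 0.83 ± 0.043. In KO2 7 rose and 2 fell. Of 14 genes for eIF2 alpha kinases, phosphatase subunits and eIF2B, 1 rose and 6 fell in cKO, 5 rose and 3 fell in KO1, and 3 rose and 7 fell in KO2. With spike-in scaling the KO2 counts were 11 and 3, against 56.7% and 6.69% of all genes on that scale. Impact, which inhibits the kinase GCN2, was at -1.11 ± 0.049 in KO1 and -0.93 ± 0.049 in KO2. In KO1 it went against the larger number of called genes in the list. Of 7 other amino acid enzymes tested, 1 rose and 3 fell in cKO, 2 rose and 0 fell in KO1 and 3 rose and 1 fell in KO2, with the proline synthesis gene Pycr1 at -1.30 ± 0.17 in cKO.

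The ER chaperones and quality-control genes, which are driven mainly by ATF6 and XBP1, gave 2 higher and 5 lower of 18 in cKO at 0 h, 9 higher and 5 lower in KO1, and 9 higher and 5 lower in KO2. Herpud1, which serves ER-associated degradation, stood at -2.17 ± 0.082 in KO1, and the chaperone gene Calr at -0.78 ± 0.024 in KO1 and -0.83 ± 0.024 in KO2. Both genes went against the larger number of called genes in this list. Over 6 h of drug in controls, where 33.1% of all genes were higher and 31.7% lower, 12 of the 18 were higher and 3 lower, 19 of the 20 synthetases were higher and 0 lower, and 12 of the 16 serine and folate enzymes were higher and 3 lower, relative to the typical gene. Relative to spike-ins these counts were 6 and 11, 4 and 12, and 4 and 7, against 7.33% and 63% of all genes. In the difference between genotypes at 6 h the synthetases gave 1 positive and 9 negative calls and the transporters 1 and 5, against 9.77% and 9.35% of all genes.

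The list counts moved with the scaling. Relative to spike-ins in cKO at 0 h, 0 synthetases were higher and 18 lower, 1 transporter was higher and 6 lower, 0 of the eIF2 group were higher and 10 lower, and 0 chaperones were higher and 12 lower, against 4.41% and 42.3% of all genes. In KO2 on that scale, 17 synthetases were higher and 2 lower, 16 serine and folate enzymes were higher and 0 lower, and 17 chaperones were higher and 1 lower, against 56.7% and 6.69% of all genes. In KO1 on that scale, the other transcription factors and regulators stayed at 0 higher and 6 lower, and the eIF2 group gave 10 higher and 2 lower, against 34.8% and 13.7% of all genes.

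Within the set, log2 CPM centred within each experiment were correlated over the 18 libraries, as a description. The points share groups, drug times and libraries, so like values over them say nothing of shared control. Psat1 and Asns were closest (Pearson r = 0.92), Atf4 correlated with Ddit3 (0.74) and Trib3 (0.69) and inversely with Phgdh (-0.83) and Psat1 (-0.80), and Pck2 with none above 0.61. Among 11428 other protein-coding genes, the gene most like Atf4 was Hist1h1a (r = 0.99), that most like Chac1 was Herpud1 (0.88), and that most like Phgdh was Clstn1 (0.99). For Ddit3 it was Scmh1 (0.94), for Trib3 Fam193a (0.88), for Asns Anp32e (0.96) and for Psat1 Xrcc5 (0.98). For Mthfd2 it was Clgn (0.95) and for Pck2 Armcx4 (0.96).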

How the data were processed

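Nuclear, ribosome-depleted RNA was sequenced with a stranded total RNA kit, per the labels' protocols. Per the submitters' processing notes, the tools were CASAVA, Trimmomatic 0.38, HISAT2 2.1.0 and HTSeq on mm10. The deposited values are raw counts of reads per gene, with 92 spike-in rows and 5 summary rows, which were left out of library sizes and tests. Reads assigned to no counted feature made up 18.0% to 53.5% of uniquely placed reads, and ambiguous ones 2.67% to 10.2%. The former share was 49.7% to 53.5% in the Ythdc1 experiment without drug and 18.0% to 24.5% with it. Of 54446 gene IDs, 54409 were found in GENCODE M21; the authors' own gene model release, like their strand setting, was not given in the sources used here.

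Counts were tested with edgeR 4.0.16 (R 4.3.3, limma 3.58.1): TMM factors, filterByExpr with a minimum count of 10, and a robust quasi-likelihood fit over 12 Ythdc1 libraries, 6 Mettl3 libraries, or all 18 for the contrast between experiments. Calls were made at a Benjamini-Hochberg adjusted p below 0.05, taken across the whole filtered table, and errors after ± are SE for log2 fold changes. Intervals are at 95%. The procedure was run on simulated data, with changes planted only in genes with more counts than Chac1 had in the Ythdc1 experiment. That run says nothing of genes with so few counts, or of the genotype differences in change over time. Each library was counted as a replicate. Replicates differed by more than sampling noise (chi-square per degree of freedom 1.75 to 6.72), which does not show that they came from separate cultures. Alternatives were DESeq2 1.42.0, other scalings and filters, a replicate block, the compared libraries only, and leaving out each library.

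All 10 genes are named, with up to 3 called genes of smallest p per list and the 3 most like genes per member, of which the nearest is given (that of Shmt2 is not reported here). The 10 genes and all lists were chosen with earlier results of these data known.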

Additional observations from a re-analysis of the deposited data

Results flagged for a closer look

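Tested differences between 2 time courses or 2 lines are gathered here as log2 values relative to the typical gene. Several turned sign with spike-in scaling, as listed in the next section. Over all genes tested, 19.4% were called in the 3 h difference, 19.1% in the 6 h difference and 46.1% in KO1 over KO2. In the change over 3 h of actinomycin D, libraries labelled cKO differed from controls in 6 genes: Atf4 by 0.56, Asns by 0.26, Phgdh by 0.45, Psat1 by 0.24, Shmt2 by -0.90 and Pck2 by -0.99. Over 6 h they differed in 5 genes: Trib3 by -1.23, Asns by 0.45, Phgdh by -0.38, Psat1 by 0.27 and Pck2 by -1.83. On this scale Asns, Psat1 and Pck2 had the same sign at both times. Phgdh was positive at 3 h and negative at 6 h. Relative to spike-ins, Pck2 was at 1.37 at 3 h and -1.89 at 6 h. The calls of Psat1 at both times and of Phgdh at 6 h did not hold in each fit that left out 1 library. Both times share the 0 h libraries. The 2 lines made for Mettl3, KO1 over KO2, differed in 9 genes: Ddit3 by -0.96, Trib3 by -0.70, Chac1 by -1.80, Asns by 0.30, Phgdh by 0.19, Psat1 by 0.43, Shmt2 by 0.36, Mthfd2 by 0.83 and Pck2 by -0.45.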

How the results depend on the processing

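Each gene value below is a log2 change. With spike-in scaling, 31 of 110 gene changes turned sign. In controls these were Asns -0.026 and Pck2 -0.065 at 3 h, and Asns -0.62, Psat1 -0.23 and Mthfd2 -0.26 at 6 h. In libraries labelled cKO they were Atf4 1.12, Trib3 1.13, Chac1 0.10, Shmt2 1.55 and Pck2 1.30 at 3 h, and Asns -0.22, Psat1 -0.013, Shmt2 -0.046 and Mthfd2 -0.23 at 6 h. In the 3 h difference between genotypes they were Ddit3 1.21, Trib3 1.91, Chac1 1.03, Shmt2 1.46, Mthfd2 2.16 and Pck2 1.37. They were Atf4 0.11 and Pck2 0.14 in KO1, Atf4 0.54, Ddit3 0.17, Trib3 0.55, Chac1 0.32, Phgdh 0.062 and Mthfd2 0.079 in KO2, and Asns -0.085, Phgdh -0.19 and Shmt2 -0.019 in KO1 over KO2. The cause was not tested.

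Near-zero values also turned: Shmt2 in the 6 h difference was 0.070 with library size alone and 0.067 with no filter, and Psat1 in KO2 was -0.042 with library size alone. In KO2, Atf4 was 0.0055 with DESeq2 size factors, 0.0038 with the filter of 50 counts, 0.0016 with DESeq2's Wald test and 0.0046 with only the compared libraries, where Trib3 was 0.013, 0.012, 0.0092 and 0.013, and 0.0025 with no filter.

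Leaving out 1 library at a time, 526 gene changes kept direction and call, 18 turned sign, 31 lost a call and 5 gained one. Called genes in the 6 h difference numbered 3 to 5, with 3 without control 0 h replicate 1, control 6 h replicate 2, cKO 0 h replicate 2 or cKO 6 h replicate 1. In that difference, values spanned -0.0025 to 0.17 for Atf4, -1.05 to 0.45 for Ddit3, -0.64 to 0.41 for Chac1, -0.19 to 0.063 for Shmt2 and -0.095 to 0.29 for Mthfd2. They spanned -0.22 to 0.028 for Mthfd2 in cKO at 0 h, -0.69 to 0.037 for Chac1 in controls at 3 h, -0.10 to 0.033 for Pck2 in KO1, and -0.19 to 0.053 for Mthfd2 between experiments. In KO2 they spanned -0.040 to 0.0021 for Atf4, -0.061 to 0.038 for Trib3 and -0.0059 to 0.059 for Psat1. None of these was called with all libraries.

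The replicate numbers did not pair the samples: deviations of same-numbered libraries correlated at -0.03 to 0.04 over 18 pairs of groups. With the replicate number as a block, 109 of 110 gene changes kept their call. Atf4 in cKO at 0 h gained a call at -0.17. That made 6 of the 10 genes called there, 1 higher and 5 lower, where 5481 of the 17900 genes tested were called. Low counts of Ddit3, Chac1 and Trib3 limit what the Ythdc1 experiment can show for them.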
